A study of Caenorhabditis elegans with 26 samples.

Results

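The mid-course hours of the wild-type time course, 22, 23 and 24 h after plating, were compared with the 6 hours that flank them, to find which miRNAs and which arms of a miRNA hairpin stood high or low in the middle of the sampled window. The 9 libraries came from N2, the *Caenorhabditis elegans* wild type, and are 9 of the 26 libraries of the series. The mid-course group held 3 libraries, and the flanking group held 6, of which 3 preceded it (19, 20 and 21 h, the early flank) and 3 followed it (25, 26 and 27 h, the late flank). Synchronized first-stage (L1) larvae were grown on bacterial food at 25 °C, and small RNAs of whole larvae, pooled by the plate, were sequenced hourly with 1 library per hour. The same hours of strain HW2643, which carries *mir-235(xe181[seed_mutant])*, an edited allele with changes in the seed of miR-235-3p and here called *mir-235(seed_mut)* or the mutant, served for comparison, again with 3 mid-course and 6 flanking libraries. That strain is 1 edited line, and each strain was followed in a single series of cultures. The mean hour of both groups was 23 h, so a straight trend over time cancels in the comparison. A rhythm, a step or a bend in time need not cancel. It does cancel, wholly or in part, where it runs in opposite ways on either side of 23 h, as a step centred there. A miRNA that was not called may thus still have a rhythm or a step.

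A miRNA is cut from the stem of a hairpin precursor, and either strand of that stem, named 5p or 3p after its position, can be loaded into an Argonaute protein. The loaded guide pairs through its seed with messenger RNAs and represses them, while the other strand, the passenger, is usually lost quickly and so stays rare. In worm larvae miRNAs such as lin-4 and let-7 act as timers of the larval stages, and many genes are expressed in a rhythm that repeats with each larval stage and its molt. Here the guide is the arm with more reads over the 9 libraries, and the passenger the other. These labels hold for these libraries alone and differ from the study's guides for some hairpins, miR-41, miR-42, miR-43, miR-77 and miR-788 among them. For miR-241 the 3p arm had more reads, although its 5p arm carries the seed shared with let-7.

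Library totals of the 9 libraries lay between 1342759 and 3305654 counts, and between 271 and 309 of 437 mature sequences had a count above 0. After a filter on low counts 222 miRNAs, holding 99.99% of the counts, were tested with edgeR. The 23 h library had the lowest total and stood apart from the others: the SD of its residuals from the fitted values was 0.45 on the log2 scale, against 0.14 to 0.35 in the other 8, and it held the highest or the lowest of the 9 values for 128 of the 222 miRNAs (57.7%). For this reason the called miRNAs, and the other values that this library moved most, are also given without it. There was no replicate at any hour, so each p-value rests on how far single hourly libraries scatter around a straight line, and time cannot be told apart from culture plate. In whole larvae, more RNA per cell and more cells of a type cannot be told apart.

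Few miRNAs differed between the mid-course and the flanking hours, and most of these had higher levels mid-course. At an adjusted p under 0.05 (edgeR, Benjamini-Hochberg over all tested), 5 miRNAs were higher mid-course (2.25% of those tested) and 2 were lower (0.901%), making 7 in all (3.15%). The higher ones were both arms of let-7, miR-41-5p and miR-39-5p of the miR-35 cluster, and miR-240-5p, and the lower ones were miR-235-3p and miR-246-3p. Before adjustment, 26 miRNAs (11.7%) were higher and 15 (6.76%) lower at p under 0.05. The log2 change was above 0 for 110 of the 222, with a median of -0.0016 and with 5th and 95th percentiles of -0.55 and 0.77. The scaling of the libraries (TMM factors) sets the typical change near 0, so this centre does not show whether miRNA levels as a whole shifted.

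To separate a peak or a dip from a step, the mid-course mean was set against each flank on its own, as a difference of mean log2 values scaled by TMM factors. Of the 7 called miRNAs, 4 lay above both flanks (let-7-3p, miR-41-5p, miR-39-5p and miR-240-5p), miR-235-3p lay below both, and 2 (let-7-5p and miR-246-3p) lay between the flanks. Among all 222 miRNAs 66 lay above both flanks, 68 below both and 88 between them. Of the 26 that were higher before adjustment 24 lay above both flanks, and of the 15 that were lower 9 lay below both. For 8 miRNAs (3.6%) all 3 mid-course values lay above all 6 flanking values on this scale, and for 5 (2.25%) all lay below. Those above were let-7-3p, miR-41-5p, miR-39-5p, miR-37-5p, miR-67-5p, miR-241-3p, miR-46-5p and miR-800-3p, and those below were miR-235-3p, miR-71-3p, miR-63-3p, miR-238-5p and miR-259-5p.

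**Figure D1:**
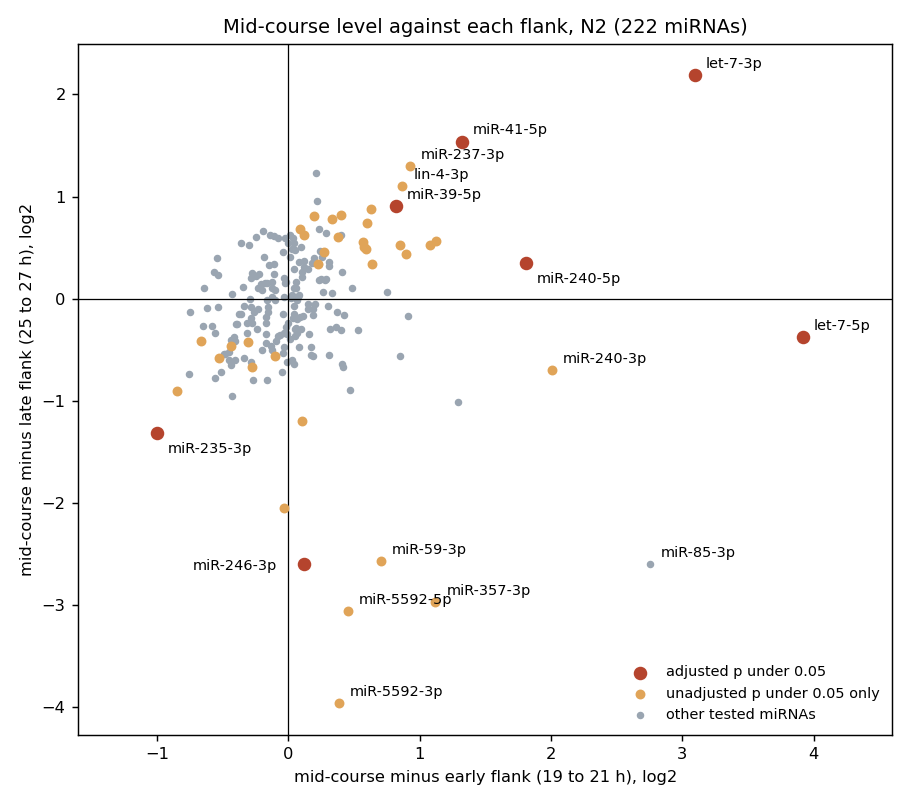
Each point is 1 of 222 miRNAs in N2, placed by its mid-course mean minus its early flank mean (horizontal axis) and minus its late flank mean (vertical axis), both as differences of mean log2 values. Points right of and above the lines at 0 lie above both flanks, and points left of and below them lie below both, as miR-235-3p does with -1.31 on the vertical axis. let-7-5p and miR-246-3p, although past the threshold, lie between the flanks.

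miR-235-3p was the single miRNA past the threshold that dipped below both flanks. miR-235 is the worm member of the conserved miR-92 family and is known for holding blast cells in quiescence in starved L1 larvae. Its level was 9535, 5150 and 12628 CPM (counts scaled by the library total alone) at 22, 23 and 24 h. At the flanking hours it was 17868, 18552 and 16155 CPM on the early side and 18296, 21747 and 22615 CPM on the late side. All 3 mid-course values lay below all 6 flanking values, and the lowest stood at the centre of the window. The mid-course mean was 9104 ± 3758 CPM (SD, n = 3) and the flanking mean was 19205 ± 2467 CPM (SD, n = 6). This was a log2 change of -1.11 ± 0.21 (SE), or 0.463 times the flanking level (edgeR adjusted p = 0.0149). Without the 23 h library it was -0.86 ± 0.15 (adjusted p = 0.0383). It passed in each of 9 fits that left out 1 library. Outside the compared hours, 18 and 28 h had 16972 and 18330 CPM, while 29 and 30 h had 9494 and 8275 CPM, about as low as 22 h. The passenger, miR-235-5p, had between 1 and 10 counts in each of the 9 libraries and was not tested.

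let-7-3p, the passenger of let-7, had the largest fold change among the called miRNAs. let-7 is a conserved heterochronic miRNA that times the transition from larva to adult, and its passenger is a rare by-product of the same hairpin. let-7-3p had 106, 110 and 65.1 CPM at 22, 23 and 24 h. It had 1.06, 5.33 and 37.9 CPM on the early flank and 22.7, 19.4 and 11.7 CPM on the late flank. The 3 mid-course values lay above all 6 flanking values, of which the one at 21 h came closest. The mean was 93.6 ± 24.8 CPM mid-course and 16.3 ± 13.3 CPM in the flanking hours (SD, n = 3 and 6), and the log2 change was 2.59 ± 0.58 (edgeR adjusted p = 0.0262). The earliest value rests on 3 counts, with an exact Poisson 95% interval of 0.218 to 3.09 CPM. The change was 2.38 ± 0.68 without the 23 h library, where it missed the threshold (adjusted p = 0.141). It also missed it without the 20, 22, 25, 26 or 27 h library, passing in 3 of the 9 such fits with an adjusted p of up to 0.141 over all 9. At 28, 29 and 30 h the level was 25.7, 102 and 108 CPM, so the last 2 hours were close to the mid-course level.

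The guide, let-7-5p, had another shape. It had 8539, 35386 and 28722 CPM at 22, 23 and 24 h, against 850, 1044 and 2991 CPM on the early flank and 25621, 26512 and 26530 CPM on the late flank. The mid-course values thus overlapped the late ones: let-7-5p rose in a step through the mid-course hours and stayed there. Its mid-course mean was 3.92 log2 units above the early flank and 0.38 below the late flank. The contrast was 1.89 ± 0.33 on the log2 scale (edgeR adjusted p = 0.0134), a value that a step gives when more of the mid-course hours lie on its upper side. Without the 23 h library the change was 1.27 ± 0.28 (adjusted p = 0.059). That was the single fit of 9 in which let-7-5p missed the threshold.

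**Figure D2:**
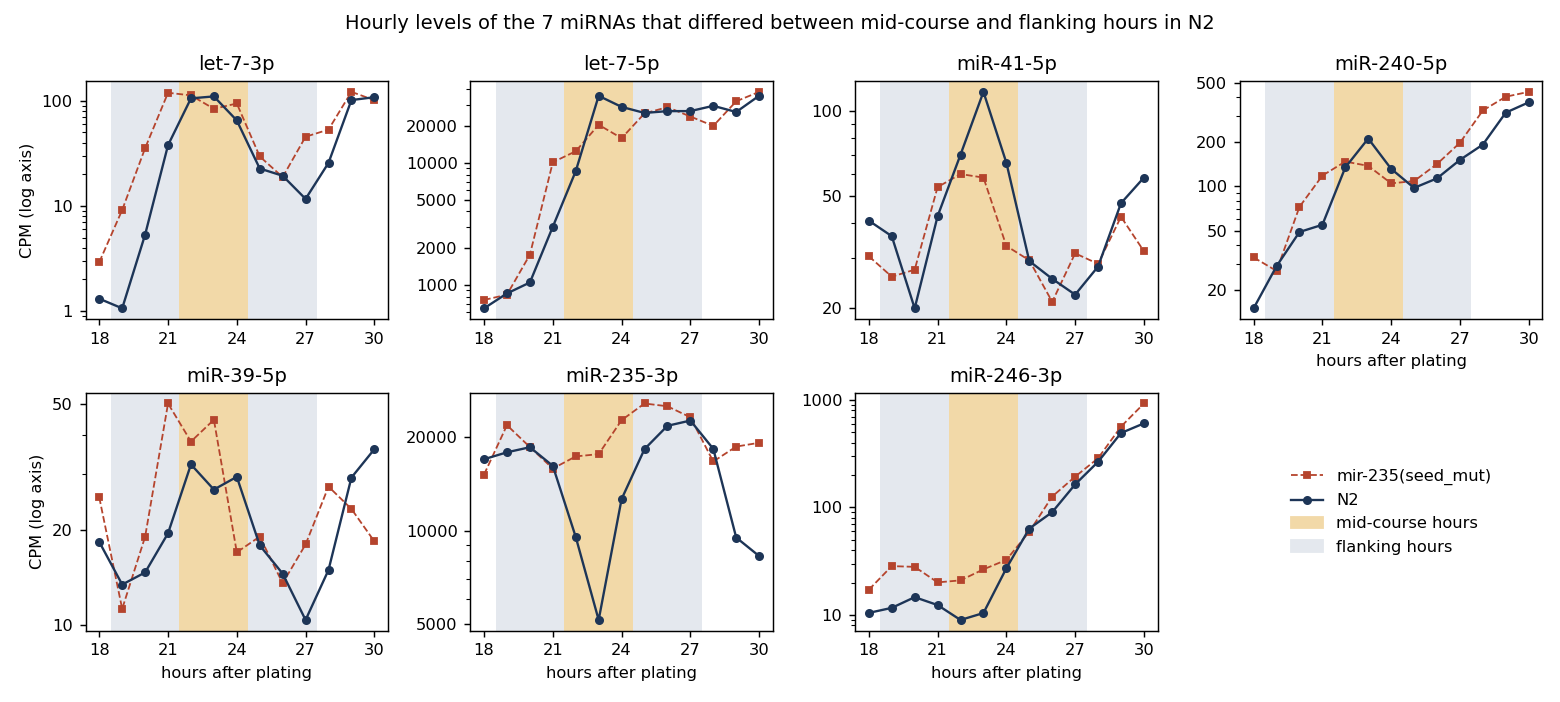
Level of the 7 called miRNAs in CPM (log axis, a separate range in each panel) in each hourly library from 18 to 30 h after plating, in *mir-235(seed_mut)* (red squares) and in N2 (blue circles), with the mid-course hours in yellow and the flanking hours in grey. In N2, let-7-3p, miR-41-5p and miR-39-5p stood above the flanks on both sides, miR-235-3p stood at 5150 CPM at 23 h below both, let-7-5p climbed to a plateau and miR-246-3p began a late climb.

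The miR-35 cluster on chromosome II holds the hairpins miR-35 to miR-41 within 1 stretch, and its members are best known from embryos, where the family is essential. miR-41-5p had 70.0, 117 and 65.5 CPM at 22, 23 and 24 h, against 36.0, 20.0 and 42.4 CPM on the early flank and 29.4, 25.4 and 22.3 CPM on the late flank. All mid-course values lay above all flanking values, and the early and the late values overlapped each other. The mean was 84.2 ± 28.5 CPM mid-course and 29.2 ± 8.56 CPM in the flanking hours (SD, n = 3 and 6). It rose by 1.56 ± 0.27 on the log2 scale (edgeR adjusted p = 0.0134) and 1.16 ± 0.22 without the 23 h library (adjusted p = 0.0383). It passed in all 9 fits with 1 library left out. The 3p arm of miR-41, the arm with the family seed, had too few counts to be tested, which is why the 5p arm is the guide by reads.

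miR-39-5p, the passenger of miR-39, had 32.2, 26.8 and 29.4 CPM at 22, 23 and 24 h. It had 13.4, 14.6 and 19.5 CPM on the early flank and 17.9, 14.5 and 10.4 CPM on the late flank, so the groups did not overlap. The log2 change was 0.98 ± 0.19 (edgeR adjusted p = 0.0149) and 0.98 ± 0.20 without the 23 h library (adjusted p = 0.0476). Its mean of 48.8 counts per library lay under the minimum of 50 set for naming, and it is named because it passed the threshold. Its guide, miR-39-3p, did not pass, with a log2 change of 0.14 ± 0.21 (adjusted p = 0.749). Both 5p arms were again above the late flank at 29 and 30 h, with 47.1 and 58.1 CPM for miR-41-5p and 29.3 and 36.0 CPM for miR-39-5p.

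All 10 tested arms of the miR-35 cluster had a log2 change above 0, with a median of 0.83, beside 110 of 222 and a median of -0.0016 over all tested miRNAs. The 2 arms above were the called ones. An unadjusted p under 0.05 (edgeR) was found for 6 of the 10, beside 41 of the 222. Without the 23 h library it was found in the cluster for miR-41-5p, miR-39-5p and miR-37-5p alone, beside 25 of 225 miRNAs. Over the miR-35 seed family, which adds miR-42-3p of the neighbouring cluster, 7 of 7 tested members were above 0 with a median of 0.75, and 0 passed the threshold (4 at an unadjusted p under 0.05, edgeR). Without the 23 h library these were again 7 of 7, with a median of 0.52, but 0 of 7 had an unadjusted p under 0.05. The summed level of the family was 1373 to 2116 CPM mid-course and 884 to 1795 CPM in the flanking hours, which overlap. miR-37-3p had 249, 512 and 435 CPM at 22, 23 and 24 h, against 236, 155 and 154 CPM on the early flank and 322, 213 and 236 CPM on the late flank. Its log2 change of 0.90 ± 0.27 missed the threshold (edgeR adjusted p = 0.0919) and was 0.58 ± 0.26 without the 23 h library. miR-35-3p and miR-40-3p had log2 changes of 0.90 ± 0.30 and 0.78 ± 0.25 (adjusted p = 0.127 and 0.116), and of 0.44 ± 0.25 and 0.52 ± 0.24 without the 23 h library. Of the 5p arms of the cluster, 4 of 7 could be tested, 4 of these were above 0 and the median was 0.93. With that library left out, 3 of the 4 were above 0 (median 0.94), with miR-36-5p at -0.03. miR-37-5p had 24.7, 19.4 and 22.3 CPM mid-course, against 7.45 to 15.5 CPM in the flanking hours (log2 change 0.88 ± 0.23, adjusted p = 0.0535).

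miR-240-5p rose on top of a trend. miR-240 is encoded beside miR-786, a miRNA known for its part in the defecation rhythm of the intestine. miR-240-5p had 135, 211 and 131 CPM at 22, 23 and 24 h, against 28.9, 49.3 and 55.1 CPM on the early flank and 97.8, 113 and 151 CPM on the late flank. The value at 27 h lay above those at 22 and 24 h, so the groups overlapped. Its mid-course mean was 1.81 log2 units above the early flank and 0.35 above the late flank. Its log2 change was 1.18 ± 0.23 (edgeR adjusted p = 0.0149) and 0.84 ± 0.19 without the 23 h library (adjusted p = 0.0494). It missed the threshold without the 19 h library (adjusted p = 0.0533). The passenger, miR-240-3p, had 10.9, 33.5 and 25.0 CPM mid-course, against 0.353 to 39.3 CPM in the flanking hours. It lay between the flanks, and its log2 change of 0.99 ± 0.40 missed the threshold (adjusted p = 0.208). Without the 23 h library it was 0.52 ± 0.35 (adjusted p = 0.668).

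miR-246-3p was the other miRNA called lower, and it showed a late onset, not a dip. In worms miR-246 is known for its link to lifespan. It had 8.99, 10.4 and 27.2 CPM at 22, 23 and 24 h, against 11.6, 14.7 and 12.4 CPM on the early flank and 63.6, 90.5 and 164 CPM on the late flank. The level at 22 and 23 h lay just under the early values, and it then climbed to 605 CPM at 30 h. The mid-course mean was 0.12 log2 units above the early flank and 2.60 below the late flank. Its contrast was -1.31 ± 0.28 (edgeR adjusted p = 0.0244) and -1.19 ± 0.31 without the 23 h library (adjusted p = 0.0952). It passed in 4 of the 9 fits with 1 library left out, and missed the threshold without the 19, 20, 22, 23 or 27 h library.

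A further 3 named miRNAs that stood highest on the late flank had negative contrasts without passing the threshold. miR-357-3p had 21.0, 24.6 and 67.3 CPM mid-course, against 14.5, 16.0 and 11.3 CPM on the early flank and 207, 244 and 408 CPM on the late flank (log2 change -0.94 ± 0.32, edgeR adjusted p = 0.131). miR-59-3p had 139, 72.2 and 244 CPM mid-course, against 74.5, 85.7 and 91.1 CPM on the early flank and 700, 674 and 1104 CPM on the late flank (-0.87 ± 0.28, adjusted p = 0.116). miR-77-3p, the arm with fewer reads here, had 246, 148 and 281 CPM mid-course, 175 to 250 CPM on the early flank and 462 to 528 CPM on the late flank (-0.52 ± 0.18, adjusted p = 0.131). All 3 lay between the flanks. Without the 23 h library the changes of miR-357-3p and miR-59-3p were -0.81 ± 0.35 and -0.58 ± 0.23. miR-85-3p climbed more evenly, with 32.2, 33.5 and 126 CPM mid-course, against 1.77, 3.55 and 14.6 CPM on the early flank and 277, 300 and 409 CPM on the late flank, and its contrast was 0.30 ± 0.31 (adjusted p = 0.635). All 7 miRNAs listed as late risers from the study's other time courses were tested. Of these 1 was called higher (miR-240-5p) and 0 were called lower. A log2 change above 0 was found for 4, with a median of 0.30 and a range of -3.49 to 1.18. In this list 4 of 7 had an unadjusted p under 0.05 (edgeR), beside 41 of all 222, and 3 of 7 without the 23 h library. miR-358-3p of that list stayed at or under 0.706 CPM in every library up to 24 h. Its contrast was the lowest of the list, and was -3.30 ± 1.24 without the 23 h library (edgeR adjusted p = 0.296).

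The naming rule added 6 miRNAs with the smallest p among those higher mid-course and 8 among those lower that missed the threshold. The 6 had adjusted p between 0.0535 and 0.0919 and log2 changes of 0.51 to 1.13, and all lay above both flanks. miR-237-5p, a relative of lin-4, had 11360, 16011 and 12302 CPM at 22, 23 and 24 h, against 7619, 7320 and 6648 CPM on the early flank and 11349, 8549 and 8784 CPM on the late flank (log2 change 0.69 ± 0.18, edgeR adjusted p = 0.0535). The 25 h value was nearly as high as the 22 h value. Its passenger, miR-237-3p, had 164, 121 and 84.3 CPM mid-course. It had 50.1, 43.5 and 110 CPM on the early flank and 40.9, 50.2 and 45.6 CPM on the late flank, and the 21 h value overlapped the mid-course range (1.13 ± 0.29, adjusted p = 0.0535, and 1.06 ± 0.32 without the 23 h library). At 29 and 30 h miR-237-3p was at 177 and 116 CPM.

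Among the relatives of let-7, which act with it in the timing of the larval stages, the arms without the family seed were the ones near the threshold. miR-241-3p had 1776, 2499 and 1840 CPM mid-course, against 1269 to 1473 CPM in the flanking hours, with no overlap (log2 change 0.58 ± 0.17, edgeR adjusted p = 0.0794). It was 0.32 ± 0.10 without the 23 h library. miR-84-3p, a passenger, had 395, 244 and 318 CPM mid-course, against 303, 246 and 294 CPM on the early flank and 215, 159 and 156 CPM on the late flank. Its change of 0.51 ± 0.15 missed the threshold (adjusted p = 0.0794) but passed without the 23 h library, at 0.61 ± 0.13 (adjusted p = 0.0476). Of the 7 seed-bearing members of the let-7 family, 4 had a log2 change above 0, 1 was called (let-7-5p), and the median was 0.05. The change was -0.18 ± 0.12 for miR-48-5p, -0.33 ± 0.14 for miR-84-5p and 0.05 ± 0.17 for miR-241-5p. When the 23 h library was left out, 3 of the 7 were above 0, 0 were called (1 at an unadjusted p under 0.05, edgeR), the median was -0.02, with miR-84-5p at -0.20 and miR-241-5p at -0.02. The lin-4 family had 2 of 2 members above 0 and 0 called, with 1 at an unadjusted p under 0.05. lin-4-5p had 368 to 467 CPM mid-course and 298 to 438 CPM in the flanking hours. The lin-4 passenger, lin-4-3p, a gene outside the naming rule that belongs to a list, had 24.7, 17.1 and 12.5 CPM mid-course, against 4.00 to 16.1 CPM in the flanking hours (1.19 ± 0.36, adjusted p = 0.0919, and 1.16 ± 0.40 without the 23 h library). miR-67-5p had 117, 107 and 120 CPM mid-course, against 60.5 to 104 CPM in the flanking hours, with no overlap (0.57 ± 0.16, adjusted p = 0.0794, and 0.56 ± 0.17 without the 23 h library).

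On the lower side, miR-71-3p came closest to the threshold after the 2 called miRNAs. It is the passenger of miR-71, a miRNA known for extending lifespan. It had 439, 333 and 402 CPM mid-course, against 605, 582 and 536 CPM on the early flank and 582, 562 and 574 CPM on the late flank. All 3 mid-course values lay below a narrow flanking range, with a mean of 391 ± 54.0 CPM mid-course and 574 ± 23.3 CPM in the flanking hours (SD, n = 3 and 6). The log2 change was -0.56 ± 0.15 (edgeR adjusted p = 0.0535) and -0.52 ± 0.14 without the 23 h library (adjusted p = 0.0975). The guide, miR-71-5p, had 52289, 38760 and 31773 CPM mid-course, against 34598 to 70760 CPM in the flanking hours, and its change of -0.47 ± 0.25 had an adjusted p of 0.364. The other lower miRNAs that lay below both flanks were miR-252-5p (-0.54 ± 0.19), miR-239a-3p (-0.80 ± 0.30), miR-238-5p (-0.46 ± 0.17) and miR-63-3p (-0.36 ± 0.13), with adjusted p of 0.131 for miR-252-5p and 0.173 for the other three. miR-239a-3p rests on few reads, with 27.3, 6.70 and 14.3 CPM mid-course, against 22.7 to 32.1 CPM in the flanking hours.

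**Figure D3:**
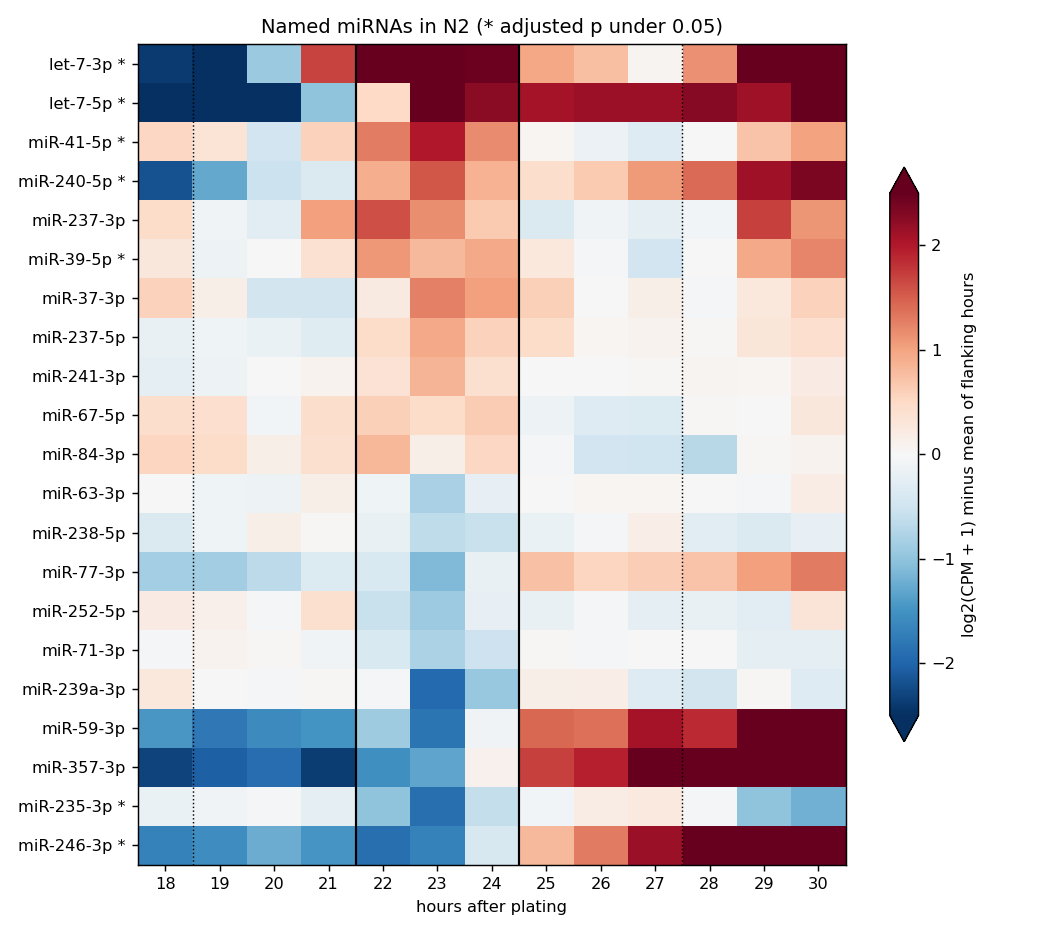
Named miRNAs in N2 (rows, ordered by their log2 change, with an asterisk where the adjusted p was under 0.05) at each hour after plating (columns), coloured by log2(CPM + 1) minus the mean of the 6 flanking hours. Solid lines bound the mid-course hours and dotted lines the flanking hours; let-7-3p and miR-235-3p, at 102 and 9494 CPM at 29 h, take up their mid-course colours again at the right edge.

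Guide and passenger arms were compared within hairpins. Both arms could be tested for 77 hairpins, and the arms changed in the same direction in 44 of them. The passenger had the larger absolute log2 change in 42 of 77. The median absolute change was 0.27 for 77 passengers and 0.24 for 129 guides, while the median of the mean counts was 116 for passengers and 672 for guides, so the passengers were measured with less depth. Of the guides 65 of 129 had a log2 change above 0 and 5 were called (3 higher, 2 lower), and of the passengers 40 of 77 were above 0 and 2 were called, both higher. The ratio of the arms, log2((3p count + 8)/(5p count + 8)), differed between the mid-course and the flanking hours in 0 of 77 hairpins (0% by limma with Benjamini-Hochberg adjustment), with 13 at an unadjusted p under 0.05. The smallest adjusted p was 0.141, for miR-84, whose ratio changed by 0.83 ± 0.20 toward the 3p passenger. Without the 22 h library, 1 hairpin passed: the ratio of miR-67 changed by -1.13 ± 0.21 toward its 5p guide (limma adjusted p = 0.0395). With all 9 libraries it was -0.79 ± 0.27 (adjusted p = 0.236). miR-67-3p had only 17, 1 and 9 counts at 22, 23 and 24 h, so that call rests on counts near or under the pseudocount of 8. With the 23 h library left out 0 passed, and the smallest adjusted p was 0.26, again for miR-84. For let-7 the ratio changed by 0.86 ± 0.51 toward the passenger (adjusted p = 0.366), and for lin-4 by 0.74 ± 0.34 (adjusted p = 0.236).

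**Figure D4:**
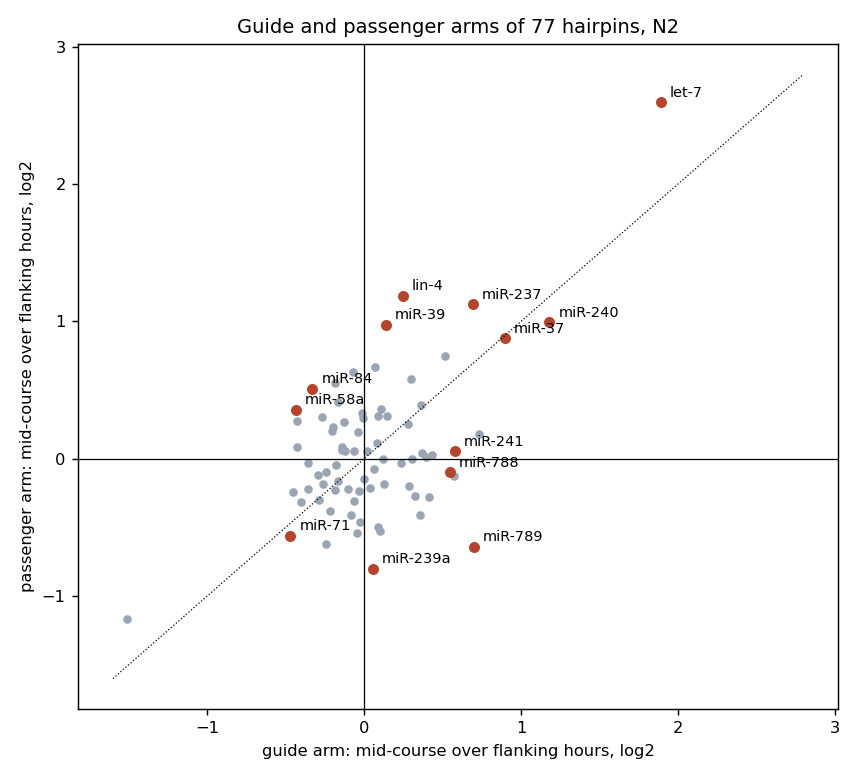
Log2 change from the flanking to the mid-course hours in N2 for the passenger arm (vertical axis) against the guide arm (horizontal axis) of 77 hairpins, with hairpins of the text in red and a dotted line where both arms change alike. let-7 is at 1.89 for the guide and 2.59 for the passenger, while lin-4 and miR-39 lie near 0 for the guide and near 1 for the passenger.

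Other lists held few called miRNAs. The miR-58 family, whose members include the most abundant miRNAs of these libraries, had 2 of 4 members above 0, a median of 0.09 and a summed level of 322445 to 358562 CPM mid-course, against 317624 to 347271 CPM in the flanking hours. The sum hides opposite moves, with contrasts from -0.44 for miR-58a-3p to 0.43 for miR-82-3p. At 23 h miR-58a-3p had 51354 CPM, against 129442 to 178390 CPM in the flanking hours. miR-81-3p and miR-82-3p had 203457 and 97900 CPM at that hour, against at most 132305 and 55235 CPM in the flanking hours. With the 23 h library removed, 0 of the 4 members of the miR-58 family were above 0 (median -0.09). The miR-51 family had 4 of 6 above 0 (median 0.05) and the miR-44 seed family 3 of 4 (median 0.07). The miR-229 cluster had 0 of 4 above 0 (median -0.22), and 1 of 4 without the 23 h library. The miR-2 seed family had 0 of 4 above 0 (median -0.31), and 2 of 4 without the 23 h library (median 0.00). In each of these 5 lists 0 members were called, with 1 member, miR-61-3p, at an unadjusted p under 0.05 (edgeR). A list of miRNAs sensitive to EBAX-1, a receptor of the ubiquitin ligase in target-directed miRNA decay, held 12 that were tested. Of these 8 were above 0 with a median of 0.39, and 1, miR-235-3p, was called lower. The list held both arms of miR-788, of which the study takes 5p as the guide. In the *ebax-1* mutant the study reported stabilization of that guide but not of the passenger strand. The 3p arm, at 0.55 here, is counted among the 8 although the study did not report it as sensitive. Leaving out the 23 h library, 2 of the 12 had an unadjusted p under 0.05 (edgeR), against 6 with it. Over all tested miRNAs the counts were 25 of 225 and 41 of 222. The 2 were miR-235-3p and miR-788-3p (0.56 ± 0.21 without the 23 h library). Most of this list is the miR-35 family. A list of 4 rare strands whose rhythm the study's text describes (those of lin-4, let-7, miR-71 and miR-235) was chosen on related samples and is not independent. Of these 3 could be tested, let-7-3p was called higher, and lin-4-3p and miR-71-3p are given above.

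Markers of cell types showed no change past the threshold. miR-1-3p, specific to muscle, had 20771, 32220 and 33287 CPM in order of size mid-course, against 27895 to 35847 CPM in the flanking hours (log2 change -0.14 ± 0.15). Of 4 neuronal markers (lsy-6-3p, miR-124-3p, miR-790-5p and miR-791-3p), 1 had a change above 0, the median was -0.21, and their summed level was 52.9 to 102 CPM mid-course and 78.0 to 95.3 CPM in the flanking hours. Here miR-790-5p and miR-791-3p are passengers by reads, and their guides, miR-790-3p and miR-791-5p, changed by 0.12 and -0.03. miR-60-3p, specific to the intestine, had 21.6 to 60.3 CPM mid-course and 41.7 to 84.4 CPM in the flanking hours (-0.40 ± 0.26). None of these 6 passed the threshold or had an unadjusted p under 0.05. Without the 23 h library the changes of miR-1-3p and miR-60-3p were -0.00 and -0.13. In that fit 2 of the 4 neuronal markers were above 0 (median -0.04). Among them miR-791-3p was at -0.60 ± 0.38, against -0.23 with all 9 libraries. The part of cell composition in the results was not tested.

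Leaving out the 23 h library, 225 miRNAs were tested, of which 4 were called higher (1.78%) and 1 lower (0.444%). The calls shared with all 9 libraries were miR-41-5p, miR-39-5p, miR-240-5p and miR-235-3p, and miR-84-3p was added. let-7-5p, let-7-3p and miR-246-3p were lost. Of the 222 miRNAs tested in both fits, 174 kept the sign of their change, among them all 41 that had an unadjusted p under 0.05 with all 9 libraries, of which 24 again had one. The contrast of miR-39-5p was 0.98 in both fits. Contrasts over 1.5 times smaller without this library included those of miR-35-3p, miR-240-3p and miR-84-5p, given above, and, among other named miRNAs that missed the threshold, 0.32 for miR-241-3p, 0.58 for miR-37-3p, 0.44 for miR-237-5p, -0.35 for miR-77-3p, -0.22 for miR-63-3p and -0.52 for miR-239a-3p.

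The same hours of *mir-235(seed_mut)* gave a comparison that shares no library with N2. None of 237 miRNAs differed between mid-course and flanking hours in the mutant (0% at an adjusted p under 0.05, edgeR; 19 at an unadjusted p under 0.05, smallest adjusted p 0.193). The change of the contrast between the strains, mutant minus N2, passed for 0 of 237 as well (0%; 14 unadjusted, smallest adjusted p 0.413). Of the 41 miRNAs with an unadjusted p under 0.05 in N2, 37 had the same sign in the mutant, beside 59.5% of all tested. Of the 10 named miRNAs higher in N2, 9 had the same sign in the mutant, as had all 10 named lower ones. They were chosen for their contrast in N2, so a smaller value in libraries that played no part in the choice is what such a choice gives, and their sizes are not compared between the strains.

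For miR-235 the reads of both alleles were summed in the strain fit and in the CPM of the mutant. The CPM of N2 leave out the reads of the edited form. miR-235-3p had 17331, 17626 and 22681 CPM at 22, 23 and 24 h in the mutant, and 9535, 5150 and 12628 CPM in N2. The mutant contrast was -0.26 ± 0.18, and mutant minus N2 was 0.83 ± 0.25 (95% interval 0.34 to 1.32). Its unadjusted p was 0.00396, and it did not pass over all 237 miRNAs (edgeR adjusted p = 0.469). let-7-3p had 113, 84.0 and 94.4 CPM mid-course in the mutant, where it was already at 119 CPM at 21 h, against 37.9 CPM at 21 h in N2. Its contrast was 1.11 ± 0.68 in the mutant. miR-41-5p had 59.8, 58.1 and 33.2 CPM mid-course in the mutant, with a contrast of 0.61 ± 0.29. For miR-246-3p the mutant contrast was -1.19 ± 0.31. Strain cannot be told apart from culture in any comparison of the mutant with N2.

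**Figure D5:**
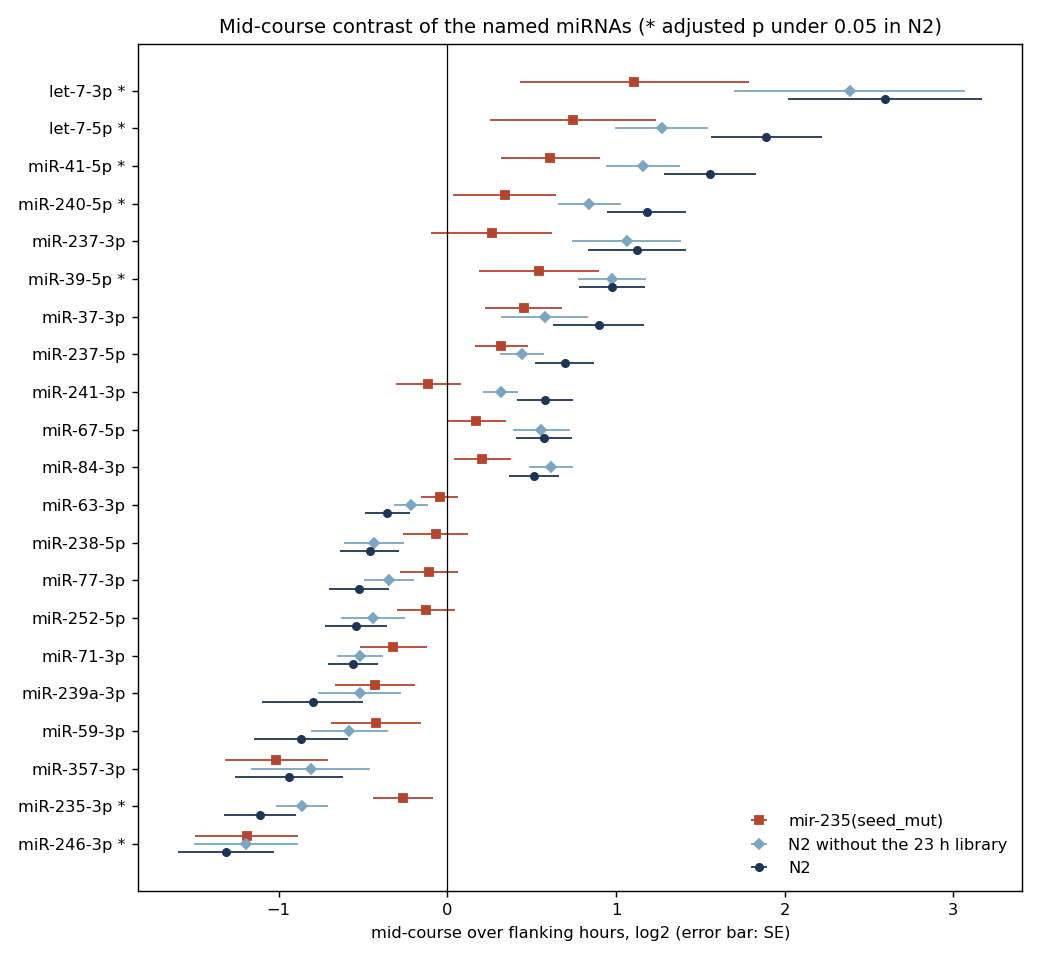
Log2 change from flanking to mid-course hours with its SE for the named miRNAs, in *mir-235(seed_mut)* (red squares), in N2 without the 23 h library (light diamonds) and in N2 with all 9 libraries (dark circles); an asterisk marks an adjusted p under 0.05 in N2. Apart from miR-235-3p, the miRNAs were chosen on the N2 values, which tends to push those values, not the mutant's, away from 0. Mutant values have the sign of N2 for all shown but miR-241-3p.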

How the data were processed

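Per the study's methods, adapters were trimmed with QuasR, reads were aligned to ce10 with Bowtie (versions not given in the sources used here), and reads on the same strand were counted when they began close to the start of a miRBase mature sequence, moved to ce10 coordinates. The deposited raw table holds these counts, made by the authors. The authors also deposited log2 values (counts put on the scale of the average library, with 8 added), which were read only to check the counts and differ from that formula by at most 0.0005.

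The contrast was fitted here to the counts of the 3 mid-course and 6 flanking N2 libraries with edgeR 4.0.16 in R 4.3.3: TMM factors, filterByExpr (minimum count 10), robust glmQLFit and glmQLFTest of the mid-course term beside a linear term in hour centred at 23 h, with Benjamini-Hochberg adjustment over all tested and a threshold of 0.05. Arm ratios were tested with limma 3.58.1, with a pseudocount of 8 on both counts. The strain difference was the strain by mid-course term of 1 edgeR fit. Edited-allele entries were left out in N2 and summed with the unedited ones in the strain fit.

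The text names both arms of miR-235, up to 15 called miRNAs per direction by size of change with a mean of at least 50 counts, filled up to 10 by smallest p where fewer passed, their other arms, and members of a list in the paragraph on it. The 2 groups not overlapping, and each flank's difference, were taken on TMM-scaled log2(count + 8) values; CPM is unscaled, so a gene can overlap in CPM alone. The comparison, its members and the lists were chosen with earlier results of these data known, and arms in the miR-51 family list were corrected after the tables were seen. RefSeq (WBcel235) gave chromosomes and hairpins within 5000 bases of each other for 421 of 437 mature sequences. Sequences nearly identical between hairpins may share reads. Intervals of CPM and of read shares cover counting error only, as reads carry no molecular identifiers. The interval of the strain difference was formed from the SE of the edgeR fit with a normal quantile. It is thus narrower than the edgeR test itself would give. The fit was tested on 1 data set simulated for this comparison (222 miRNAs). It recovered 15 of 20 changes of 1 log2 unit and 20 of 20 of 2, both in that 1 simulation, with 3 false calls. The simulated levels held no trend, step or rhythm beside the mid-course change, so these rates need not hold for the data. Alternatives included DESeq2 1.42.0, other scalings and filters, no hour term, fewer flanking hours and each library left out.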

Additional observations from a re-analysis of the deposited data

Results flagged for a closer look

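miR-237-3p at 21 h was far from the other flanking hours of N2: its gap to the nearest value took up 0.796 of the range of the 6 values, against a critical value of 0.625 (Dixon, 95%). The level was 110 CPM at 21 h, against 40.9 to 50.2 CPM in the other 5 flanking libraries. It was the 1 value set apart among 21 miRNAs examined, and chance sets apart about 1 in 20. That figure takes the 6 hours as interchangeable, whereas they are ordered in time and 21 h adjoins the mid-course hours. Without the 21 h library the contrast of miR-237-3p was 1.47, and it passed the threshold (edgeR adjusted p = 0.0106).

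Reads of the edited form of miR-235-3p appeared in N2 libraries, which lack the edited allele. They made up at most 0.542% of the miR-235-3p reads at 19 to 27 h (Wilson 95% interval 0.477% to 0.616%, 235 reads at 21 h) and at least 0.0215% (15 reads at 27 h). Outside the compared hours the share was 2.66% at 30 h (interval 2.48% to 2.85%, 747 reads). These reads were left out of the N2 contrast.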

How the results depend on the processing

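With DESeq2 14 miRNAs were higher and 6 lower mid-course, with limma at a pseudocount of 8 5 were lower, without the hour term 2 were higher and 1 lower (miR-41-5p, miR-39-5p and miR-235-3p), and with the flanks limited to 20, 21, 25 and 26 h, or at a threshold of 0.01, 0 were higher and 0 lower. In the fit with fewer flanking hours, which has fewer libraries, the 27 miRNAs at an unadjusted p under 0.05 were not called by edgeR, and miR-235-3p, miR-41-5p and miR-39-5p had an adjusted p of 0.0877. Leaving out 1 library gave 4 to 13 higher and 1 to 3 lower. The lowest count of 1 lower came without the 19, 20, 23 or 27 h library, the 10 higher came without the 21 h library and the 13 higher without the 22 h library. The arm ratio gave 0 to 1 hairpins. Size factors, library totals, the other filters and an added early-to-late step stayed within 1.5 times of the main counts. All 7 called miRNAs were also called by DESeq2, whereas without the hour term both arms of let-7, miR-240-5p and miR-246-3p were lost, with let-7-5p at 0.82 ± 1.23 (edgeR adjusted p = 0.78), and with fewer flanking hours all 7 were lost. Over 398 values of 21 named miRNAs under these alternatives, 345 kept direction and side of the threshold, 25 missed it, 28 gained it and 0 changed direction. With the hour as a replicate block pairing the strains, 0 of the strain differences passed, as in every other alternative (smallest adjusted p 0.063), and the miR-235-3p difference ranged from 0.59 to 1.13. The 23 h library had the fewest counts, and low passengers limit the arm comparison.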
